A study of Mus musculus with 150 samples.

Results

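The receptors through which serotonin, dopamine, noradrenaline, acetylcholine, opioid peptides, neuropeptide Y, somatostatin and extracellular ATP act were followed across 34 mouse tissues. They were taken as every probe set whose annotated symbol starts as a serotonin (Htr), dopamine (Drd), adrenergic (Adra, Adrb), muscarinic (Chrm), nicotinic (Chrn), opioid (Opr), neuropeptide Y (Npy followed by a receptor number), somatostatin (Sstr) or purinergic (P2rx, P2ry) receptor gene, without Drd2 and Npy2r. The rule used no measured value and found 52 probe sets of 44 genes among the 12422 probe sets of the array that are not controls. They were 13 serotonin, 2 dopamine, 2 alpha adrenergic, 2 muscarinic, 11 nicotinic, 4 opioid, 5 neuropeptide Y, 7 somatostatin, 4 P2X and 2 P2Y probe sets. No beta adrenergic probe set was among them. Chrne, Sstr2 and Htr4 had 3 probe sets each and Chrng and Npy1r had 2, and these are described separately.

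The study hybridised RNA of dissected tissues of adult mice to Affymetrix MG-U74Av2 arrays, which carry short oligonucleotide probes. There were 24 neural tissues, counting retina, pituitary and choroid plexus, and 10 body tissues. The mice came from the inbred strains 129, B6, DBA, AJ and C3H, with no genetic change, agent or treatment named, and the labels give neither sex nor age in weeks. Of 150 deposited arrays, 148 were used: 98 neural arrays, of which 43 were of 129, 47 of B6 and 8 of DBA mice, and 50 body arrays, 1 of each strain in each tissue. Retina was represented by B6 arrays alone, motor cortex by B6 and DBA arrays, and entorhinal and perirhinal cortex by 129 and DBA arrays. Levels of these tissues rest on a strain adjustment that takes a strain difference as equal in all tissues of a fit. Neural tissues had 3 to 7 arrays each. Several titles join more than 1 code with a plus sign and were read as pooled tissue. The labels do not say whether the arrays of a tissue came from separate animals, so the p-values measure the spread between these samples, which may be partly technical. BNST and PAG are named here as the labels give them. The whole hippocampus overlaps the separately dissected CA1, CA3 and dentate gyrus, and the whole cortex overlaps its parts.

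All these receptors sit in the cell membrane. Serotonin receptors other than the Htr3 channel, and the dopamine, adrenergic, muscarinic, opioid, neuropeptide Y, somatostatin and P2Y receptors, signal through G proteins. Nicotinic receptors, Htr3a and P2X receptors are ion channels that open when the transmitter binds. In the brain the same transmitter acts through different family members in different cells, and in skeletal muscle a nicotinic channel of alpha, beta, delta and epsilon subunits, with gamma in place of epsilon before birth, carries the signal from nerve to muscle.

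Levels are log2 of the deposited intensity, with values under the 20th percentile of all values (an intensity of 10.4, or 3.38 on the log2 scale) raised to it. This floor has no measured order below it. A tissue mean was adjusted for strain, and a probe set was tested in a comparison where at least 1 of its tissue means passed the median of all log2 values, 5.73. A difference was called where the Benjamini-Hochberg adjusted p of limma's moderated test was under 0.05 and the log2 difference at least 1, and errors are standard errors. Levels of different probe sets cannot be set against each other. In these bulk samples fewer cells of a type and less RNA per cell cannot be told apart.

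The 75th percentile of intensity ranged over the arrays from 165 to 184 and the median from 38.4 to 68.1, and 5.98% of values were below 0. A pair of deposited columns with different labels, 129 hippocampus replicate 1 and DBA perirhinal cortex replicate 2, held the same value for all 12488 probe sets, and both were left out of every result. Defining markers of the following tissues matched their labels: 11 of 12 probe sets of neuron markers were higher in neural than in body tissues, 7 of 7 photoreceptor probe sets were higher in retina than in other neural tissues, 4 of 4 choroid plexus epithelium probe sets in choroid plexus, 8 of 8 pituitary hormone probe sets in pituitary, 5 of 5 striatal projection neuron probe sets in striatum, 9 of 11 striated muscle probe sets in muscle and 5 of 5 germ cell probe sets in testes. The hypothalamus arrays also had 4 of 8 pituitary hormone probe sets higher, the adrenal arrays 6 of 8 adipocyte probe sets, and the white adipose arrays 6 of 8 smooth muscle probe sets. Adipocyte markers had a mean level of 8.78 in white adipose tissue, below the 9.56 in adrenal and the 10.7 in brown adipose tissue.

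Much of these families lay close to the floor. Of the receptors' array values, 28.8% were at the floor, against 20.0% over all probe sets. Of the pairs of a receptor probe set and a tissue, 47.2% had a mean within 1 log2 unit of the floor, against 31.6% over all probe sets. The share was above that of all probe sets in each of the 34 tissues: among the receptors it ran from 32.7% in entorhinal cortex to 71.2% in spleen, and among all probe sets from 25.5% to 35.9%. The median highest tissue mean was 6.34 for the receptors and 8.02 for all probe sets, and the median number of tissues in which a probe set passed the filter was 2 against 17. Neural tissues had 10 to 20 receptor probe sets past the filter and body tissues 7 to 16, with muscle at 16.

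The families differed in how much of their signal was near the floor. The share of pairs near the floor was 1.47% for P2X and 11.8% for alpha adrenergic receptors, 34.03% for somatostatin, 40.1% for nicotinic, 43.2% for serotonin and 48.5% for dopamine receptors. It was 73.5% for muscarinic, 77.2% for opioid, 88.2% for neuropeptide Y and 94.1% for P2Y receptors.

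**Figure D1:**
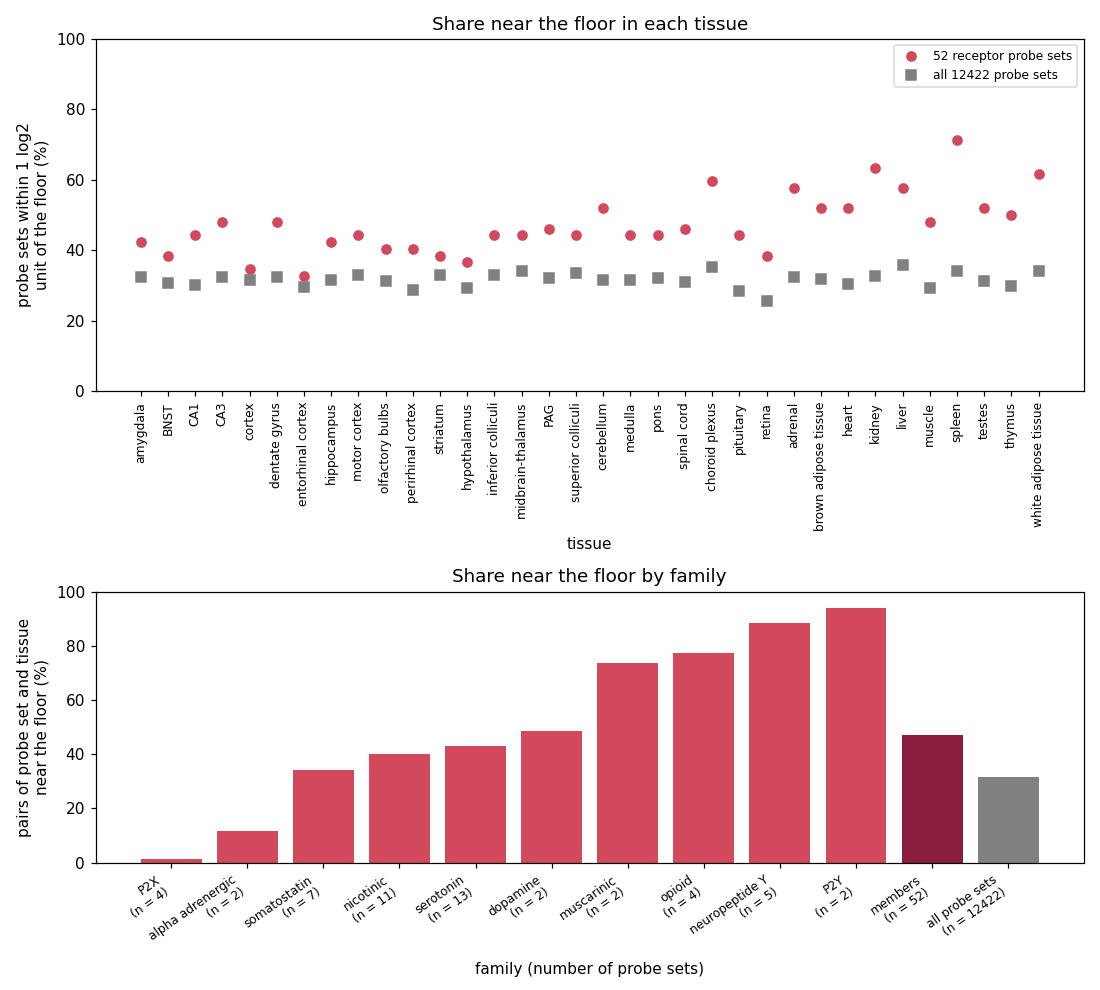
Share of probe sets whose mean lies within 1 log2 unit of the floor, in percent, for each of the 34 tissues, with the receptors and all probe sets as separate points (upper panel), and share of pairs of a probe set and a tissue near the floor in each family, in percent (lower panel, bars from 0, n probe sets). The receptor share lies above that of all probe sets in all 34 tissues, between 32.7% and 71.2%.

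Of the 52 probe sets, 7 (13.5%) were near the floor in every tissue, against 1266 (10.2%) of all probe sets. They were Oprm1 and Oprd1, the mu and delta opioid receptors, Npy4r and Npy5r, Htr2b, Sstr3 and the Htr4 probe set 95321_at. Sstr3 was at the floor on every array. Oprm1 was at the floor on 98.6% of arrays, with a heart array at 13.3 and a pituitary array at 11.8 above it. Oprd1 was at the floor on 92.6% of arrays and above it on 11, 1 of the 4 striatal arrays (15.8) among them. Altogether 17 receptor probe sets (32.7%) passed the filter in no tissue, against 2619 (21.1%) of all.

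For the untested probe sets tissue means are given without a test. Htr1a was highest in CA1 at 5.73 and in whole hippocampus at 5.72. Chrm4, a muscarinic receptor of striatal neurons, was highest in striatum at 5.11, where the 4 arrays read 24.6, 26.9, 61.3 and 35.3. Htr1f was highest in olfactory bulbs at 5.09, Sstr1 in entorhinal cortex at 4.76, Drd3 in pons at 4.55 and Npy5r in dentate gyrus at 4.15. Retina held the highest mean of Chrnd (5.72), the Npy1r probe set 93128_at (5.34), the Chrng probe set 161215_at (4.96), Npy6r (4.81) and Htr2b (4.17). Heart held the highest mean of P2ry1 (4.61), muscle that of Npy4r (4.11) and perirhinal cortex that of Oprd1 (3.72). Oprm1, Htr4 95321_at and Sstr3 have no order of tissues here, since their highest means, 3.44, 3.39 and 3.38, are the floor or next to it. Chrnd, the delta subunit of the muscle nicotinic receptor, had its lowest mean of all tissues in muscle, at 3.81. In the annotation Chrm4, Htr2b and Oprm1 overlap the protein-coding genes Mdk, Psmd1 and Ipcef1 in turn. Which gene the probes read was not tested.

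At the other end, 4 probe sets passed the filter in all 34 tissues: Htr1d, the Htr4 probe set 95322_g_at, P2rx7 and Sstr4. Their tissue means spanned only 1.66, 1.95, 1.47 and 1.48 log2 units from the lowest to the highest tissue. Htr5a, which passed in 33 tissues, spanned 1.22. Tested in at least 1 comparison and called in none were Htr1d (highest in retina, 7.47), P2rx7 (retina, 7.43), Htr5a (retina, 6.90), Chrna7 (perirhinal cortex, 6.26) and the Chrng probe set 95639_at (muscle, 6.10, with a span of 1.14).

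**Figure D2:**
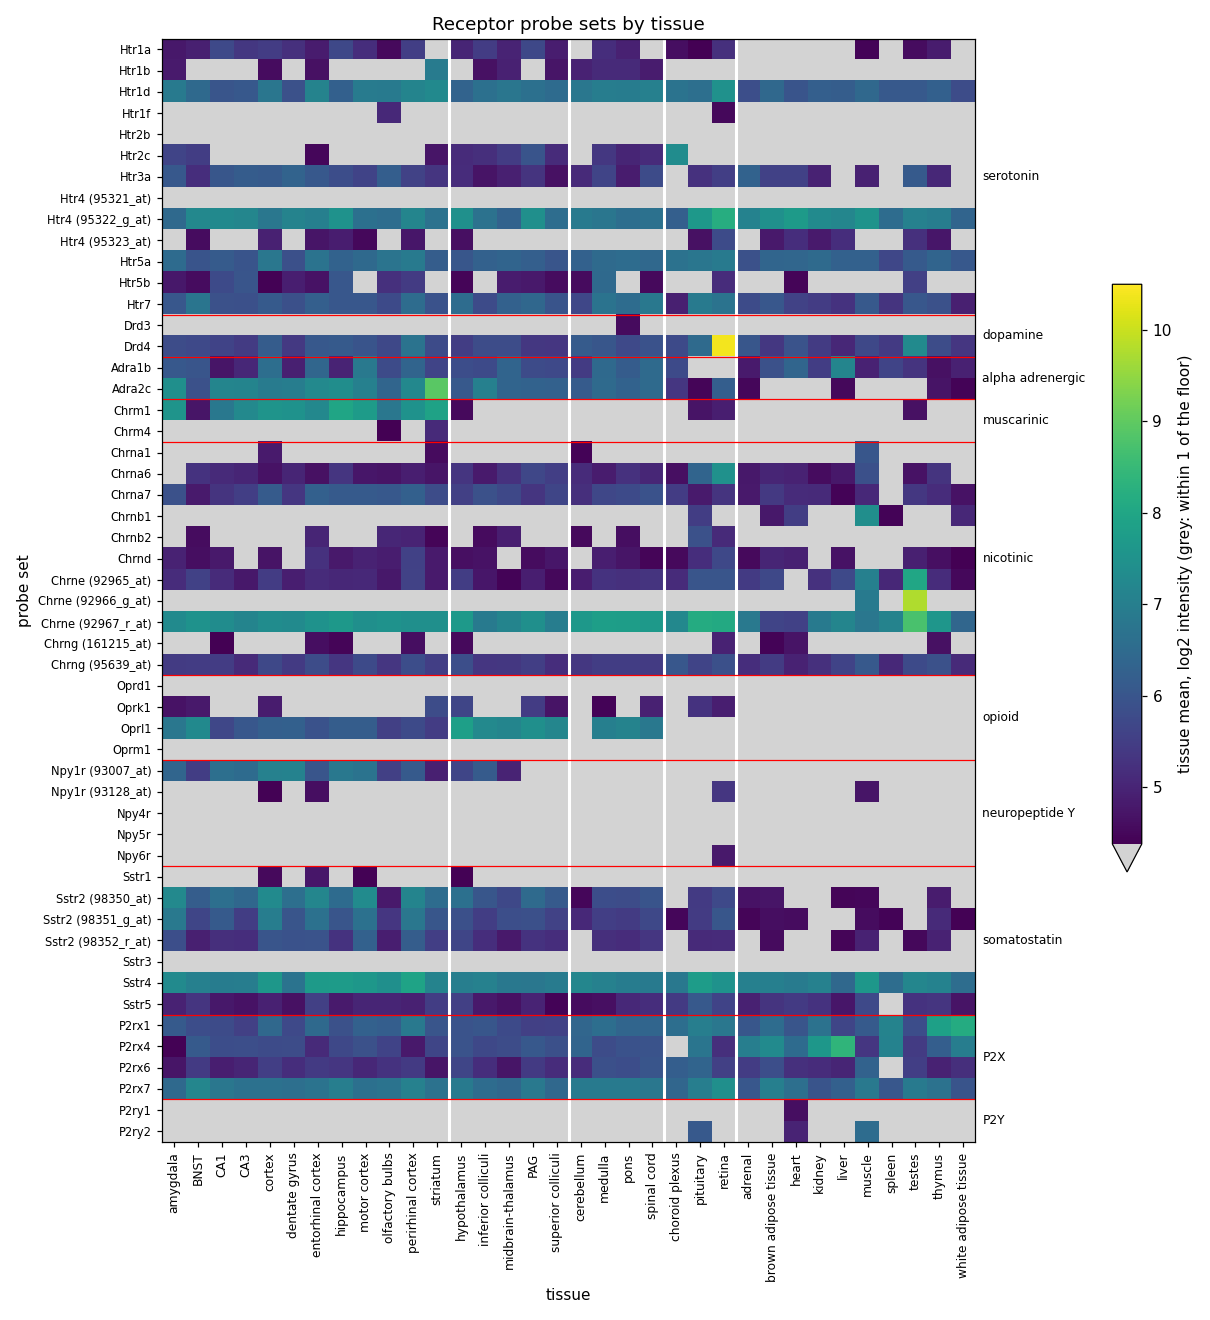
Strain-adjusted mean log2 intensity of each of the 52 receptor probe sets (vertical, by family) in the 34 tissues (horizontal), neural tissues first and grey for means within 1 log2 unit of the floor. A few cells stand out against flat or floor-level stretches, among them Drd4 in retina (10.40), Adra2c in striatum (8.93) and Chrne 92966_g_at in testes (9.78).

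Neural and body tissues were compared over tissue means, 24 against 10. Of 35 receptor probe sets tested, 7 (20%) were higher in neural tissues, against 14% of all 9803 tested, and 2 (5.71%) were lower, against 13.5%. All 7 passed the filter in neural tissues alone, so they entered the test through the side on which they were called higher. Chrnb1, called lower, likewise passed in body tissues alone. The part of the filter in these shares was not tested. The receptors' median difference was 0.35 and that of all probe sets -0.07. None of the 35 had every neural tissue mean above every body tissue mean, as 1.41% of all probe sets did.

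The nociceptin receptor Oprl1 differed most, by 2.66 ± 0.38 (adjusted p = 4.27e-07). Its body means lay between 3.36 and 3.62, next to the floor, and 22 of 24 neural means were above them, with hypothalamus at 7.83 and pituitary at 3.38. Adra2c, an alpha2 adrenergic receptor that restrains transmitter release, was higher by 2.44 ± 0.27 (adjusted p = 2.98e-09). Its neural means ran from 4.46 in pituitary to 8.93 in striatum, and 23 of them were above the highest body mean, 4.71 in thymus.

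The Sstr2 probe sets 98350_at and 98351_g_at were higher in neural tissues by 1.79 ± 0.28 (adjusted p = 1.56e-06) and 1.46 ± 0.21 (adjusted p = 3.40e-07). Chrm1 was higher by 1.66 ± 0.53 (adjusted p = 0.00881), with 14 of 24 neural means above every body mean. Npy1r 93007_at was higher by 1.64 ± 0.41 (adjusted p = 0.00115) and Htr2c by 1.23 ± 0.32 (adjusted p = 0.00148). The Htr2c body means stood at 3.40 to 3.41, so that its difference depends on where the floor is set: with the floor at the 40th percentile of all values it was 0.25 and not called. The same floor left 0.69 for Npy1r and 0.88 for Sstr2 98351_g_at, also not called.

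Lower in neural tissues were P2rx4, an ATP-gated channel, at -1.12 ± 0.26 (adjusted p = 0.000415), and Chrnb1, the beta subunit of the muscle nicotinic receptor, at -1.02 ± 0.28 (adjusted p = 0.0024). Both calls were lost without single organs. Without liver the P2rx4 difference was -0.95 and not called, and without muscle, heart or white adipose tissue that of Chrnb1 was -0.71, -0.92 or -0.97 and not called. The higher floor left -0.31 for Chrnb1.

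Downstream of the receptors, G protein subunits and effectors also differed between neural and body tissues. Of 36 probe sets of G protein subunits, 14 were higher and none lower, with a list median of 0.60 against -0.07 for all probe sets. They included Gng3 at 4.97 ± 0.29 and the Gnao1 probe sets, the largest of which differed by 4.06 ± 0.33; Gnao1 encodes the Go alpha subunit that many of these receptors use. Of 41 probe sets of effectors and regulators, 18 were higher and none lower (median 0.73), led by Prkar1b, a regulatory subunit of protein kinase A, at 4.90 ± 0.39, and Adcy2, an adenylyl cyclase, at 4.05 ± 0.44. Of 10 probe sets of peptide ligands 5 were higher (median 1.01), and of 12 probe sets for amine and acetylcholine synthesis, storage and uptake 1 was higher and 1 lower (median 0.41).

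The telencephalon was set against hindbrain and spinal cord over 12 and 4 tissue means. Of 25 receptor probe sets tested, 3 were higher in the telencephalon (3.55% of all 7609 tested were) and none lower (3.23% of all). Among these tissues Chrm1 and Npy1r 93007_at passed the filter in the telencephalon alone. Chrm1 was higher by 3.32 ± 0.40 (adjusted p = 3.3e-05): its telencephalic means ran from 4.73 in BNST to 7.98 in hippocampus, above all 4 means of pons, medulla, cerebellum and spinal cord, which lay between 3.66 and 4.12. Npy1r 93007_at was higher by 2.45 ± 0.34 (adjusted p = 0.000104), again without overlap, since its lowest telencephalic mean was 4.92 in striatum and its hindbrain means ended at 4.37.

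The third call, Sstr2 98350_at at 1.14 ± 0.37 (adjusted p = 0.0319), was lost without cerebellum, with 0.79 and an adjusted p of 0.125. Without medulla or pons its adjusted p was 0.0570 or 0.0600, without the filter 0.0607, and without whole hippocampus and whole cortex 0.0585. Over the same tissues 9 of 10 oligodendrocyte and 4 of 10 astrocyte probe sets were lower in the telencephalon, and of 11 neuron probe sets 1 was higher and 1 lower. The part of cell makeup in these receptor differences was not tested.

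Next, single neural tissues were set against the mean of the other 23. Of 32 receptor probe sets tested, 20 (62.5%) were higher in at least 1 tissue, against 48.5% of all 8460, and 14 (43.8%) were lower in at least 1, against 37.9%. Some passed the filter only through the tissue in which they were called higher. These were Htr1b and Oprk1 (striatum), Chrnb2, P2ry2 and Sstr5 (pituitary) and Htr4 95323_at (retina). The part of the filter in these shares was not tested. Over pairs of a probe set and a tissue, 53 (6.9%) were called higher, against 3.98% of all pairs, and 44 (5.73%) lower, against 3.37%. In 7 members (21.9%) every array of 1 tissue lay above every other neural array, against 26.1% of all probe sets: Drd4, Chrna6 and Htr4 95322_g_at in retina, Adra2c and Htr1b in striatum, Htr2c in choroid plexus and P2ry2 in pituitary.

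The tissue with the most receptor calls was choroid plexus, where 11 of 32 were lower (19.2% of all) and 1 was higher (15.2% of all). Cerebellum had 6 lower (3.77% of all) and none higher (3.72%), and amygdala 5 higher (1.63%) and 1 lower (0.934%). Motor cortex had 5 higher (3.13%) and 1 lower (2.23%). Pituitary and retina had 5 and 4 higher (14.1% and 14.2% of all) and 5 and 4 lower (12.6% and 12.2%).

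The remaining forebrain tissues had receptor calls mostly on the higher side. Striatum and cortex each had 4 higher (3.38% and 2.98% of all), whole hippocampus 3 (2.2%), and CA3 3 higher (2.32%) and 1 lower (1.84%). CA1, dentate gyrus, entorhinal cortex and hypothalamus each had 2 higher (2.02%, 2.49%, 1.83% and 2.54%), with 1 lower in dentate gyrus (1.88%) and hypothalamus (1.03%). BNST and perirhinal cortex had 1 higher each (2.43% and 1.95%), and olfactory bulbs 1 higher (3.98%) and 2 lower (1.88%).

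In midbrain, hindbrain and cord the counts were small. PAG had 3 higher (1.86%) and 2 lower (2.15%). Pons, medulla and superior colliculi each had 1 higher (2.43%, 2.54% and 1.43%) and 2 lower (2.17%, 1.87% and 1.45%). Inferior colliculi and midbrain-thalamus each had 1 higher (1.29% and 1.61%) and 1 lower (1.31% and 1.58%), and spinal cord 1 lower (2.22%). Neuron markers were lower in 10 of 12 probe sets in choroid plexus and in 11 of 12 in pituitary. With the floor at the 40th percentile 66 of all 148 calls on these receptors, 29 higher and 37 lower, were no longer made.

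**Figure D3:**
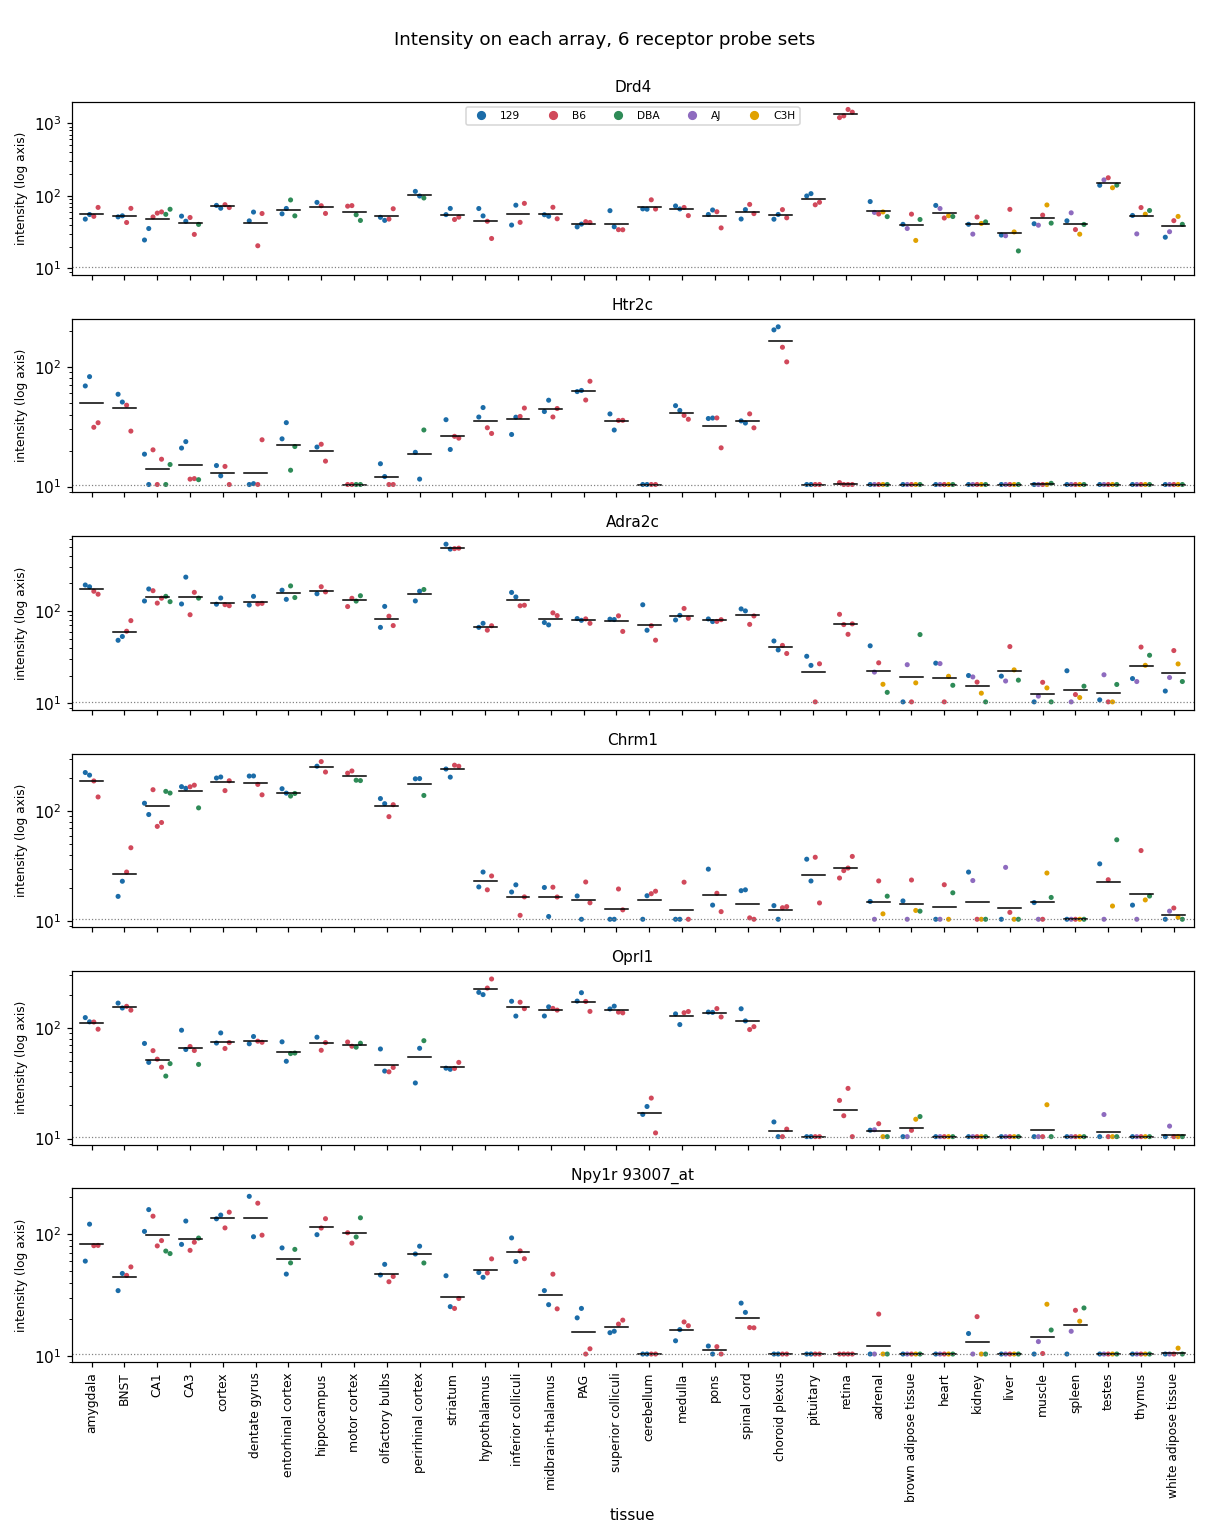
Deposited intensity on each array (log scale, values under the floor drawn at it) for leading receptor probe sets, by tissue, 1 point an array, coloured by strain, with a line at the mean of the log2 values. Drd4 in retina, Htr2c in choroid plexus and Adra2c in striatum lie above every other neural array of their probe sets.

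Among serotonin receptors, Htr2c, known for its abundance in choroid plexus epithelium, was highest in choroid plexus. The 4 choroid plexus arrays read 203.9 and 216.2 in 129 and 145.9 and 110.1 in B6 mice, and the other 94 neural arrays reached at most 82.9, with a median of 23.2. Every choroid plexus array thus lay above all others, and the difference was 2.83 ± 0.19 (adjusted p = 1.66e-24). The PAG arrays followed at 62.2, 63.5, 52.9 and 75.9, a difference of 1.40 ± 0.19 (adjusted p = 2.17e-09). Of 4 probe sets of choroid plexus epithelium markers, all 4 were higher in choroid plexus, with a mean level of 12.2, and 2 were lower and none higher in PAG, with a mean level of 4.15. Their part in the Htr2c differences was not tested.

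In amygdala the Htr2c arrays split by strain, with 69.3 and 82.9 in 129 mice and 31.3 and 34.1 in B6 mice. The difference there was 1.04 ± 0.19 (adjusted p = 4.82e-06) and was not called without either 129 array, at 0.92 and 0.83. Htr2c was lower in olfactory bulbs (-1.10), motor cortex (-1.17), retina (-1.19), cerebellum (-1.31) and pituitary (-1.31). In motor cortex, cerebellum and pituitary all arrays were at the floor, so that the size of these fitted differences depends on where the floor is set. At the 40th percentile floor all Htr2c calls but choroid plexus were lost.

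Htr1b, a receptor on the terminals of striatal and other neurons, stood out in striatum. Its striatal arrays read 135.6, 87.7, 169.2 and 110.3, and the highest other array was 49.3, in entorhinal cortex. The difference was 2.65 ± 0.24 (adjusted p = 1.36e-15). Htr1b was lower in dentate gyrus (-1.06 ± 0.24) and CA3 (-1.12 ± 0.22), where every array was at the floor.

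Htr5b was higher in medulla, where the arrays read 71.4, 94.9, 80.8 and 109.9, by 1.66 ± 0.20 (adjusted p = 6.17e-11). It was also higher in CA3 (1.22 ± 0.18) and whole hippocampus (1.21 ± 0.23). The medulla arrays were not apart from these tissues: a CA3 array at 106.3, among others, lay within the medulla range. The mean was 6.46 in medulla, 6.03 in whole hippocampus and 6.00 in CA3. With the Gapdh 3′ to 5′ ratio, a measure of RNA quality, as a covariate the CA3 difference was 0.98 and not called.

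The Htr4 probe sets did not read alike. In retina 95322_g_at read 272.9, 241.2, 299.1 and 380.2, above every other neural array (at most 228.7), and was higher by 1.31 ± 0.12 (adjusted p = 1.02e-16). The probe set 95323_at was higher there by 1.45 ± 0.29 (adjusted p = 7.64e-06) with arrays from 39.2 to 62.9, below the 105.5 of 1 CA1 array. The third, 95321_at, read below 0 on all 4 retina arrays. Over the 34 tissue means 95322_g_at and 95323_at had a Pearson r of 0.596, and 95321_at had 0.0778 and 0.128 with the others, which share a gene and a set of arrays.

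Htr7 was lower in choroid plexus, at -1.29 ± 0.15 (adjusted p = 5.21e-13), with arrays at 34.7, 29.4, 34.1 and 24.3 that all lay under every other neural array. Htr3a, the serotonin-gated channel, was lower there at -1.33 ± 0.22 (adjusted p = 1.42e-07), and without the first B6 array at -0.997 and not called. Its highest tissue mean was in dentate gyrus at 6.34, next to adrenal at 6.31.

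On the ligand side, Slc6a4, the serotonin transporter, was higher in PAG by 5.99 ± 0.31 and in pons by 3.02 ± 0.31, and Ddc, the decarboxylase that completes serotonin and dopamine synthesis, in PAG by 3.58 ± 0.21. PAG was also among the 3 tissues in which Htr2c was called higher. In medulla, the tissue of the largest Htr5b difference, Slc6a4 was higher by 1.43 ± 0.31.

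Dopamine receptors were represented by Drd3 and Drd4. Drd4, the D4 receptor known from photoreceptors, read 1197, 1265, 1551 and 1422 on the 4 retina arrays, all of B6 mice, while the other 94 neural arrays ran from 20.5 to 115.1 with a median of 55.4. No array of another tissue came near, and the difference was 4.59 ± 0.18 (adjusted p = 7.36e-38), the largest of any neural call here. Photoreceptor markers were also higher in retina, led by Gnat1, rod transducin, at 9.95, and so were 14.2% of all probe sets. The part of photoreceptors in the Drd4 difference was not tested. Among body tissues Drd4 was higher in testes, with arrays at 139.8, 165.9, 177.4, 129.2 and 140.2 against at most 83.4 elsewhere and a difference of 1.75 ± 0.19 (adjusted p = 4.36e-11). Drd4 was the only dopamine receptor tested, since Drd3 was at the floor on 57.4% of arrays. The dopamine transporter Slc6a3 was higher in midbrain-thalamus by 3.60 ± 0.34, and Th, the first enzyme of dopamine synthesis, in olfactory bulbs by 3.48 ± 0.16.

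Of the adrenergic receptors, Adra2c had its peak in striatum, with 530.4, 469.4, 475.2 and 480.5 on the 4 arrays against at most 233.5 on any other neural array, in CA3. The striatal arrays were close to each other and apart from all others, and the difference was 2.40 ± 0.14 (adjusted p = 1.85e-25). Adra2c was lower in choroid plexus (-1.35 ± 0.14) and pituitary (-2.27 ± 0.14). Adra1b, the alpha1B receptor, was higher in motor cortex by 1.31 ± 0.26 (adjusted p = 3.22e-05) and lower in retina (-1.49 ± 0.25) and pituitary (-1.70 ± 0.24). Its highest tissue was liver, where this receptor drives glucose release: the arrays read 149.8 in 129, 181.8 in AJ, 62.9 in B6, 178.0 in C3H and 101.7 in DBA mice, against at most 95.1 in other body tissues. The B6 liver array alone fell into the range of the other organs, and the difference was 1.82 ± 0.28 (adjusted p = 3.73e-07).

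Chrm1, the M1 muscarinic receptor of forebrain principal neurons, had the most calls of any member, with 11 neural tissues higher and 10 lower. Whole hippocampus read 256.2, 282.2 and 226.8 and striatum 241.5, 203.8, 261.8 and 256.0, for differences of 2.44 ± 0.23 (adjusted p = 8.34e-15) and 2.35 ± 0.20 (adjusted p = 1.62e-17). The arrays of both tissues overlapped. Motor cortex (2.18), amygdala (1.97), cortex (1.96), dentate gyrus (1.93), perirhinal cortex (1.90), CA3 (1.69), entorhinal cortex (1.65), CA1 (1.23) and olfactory bulbs (1.20) followed, with standard errors of 0.16 to 0.23. Within the hippocampus the CA1 arrays ran from 72.7 through a median of 118.0 to 156.7, and the dentate gyrus arrays from 140.7 to 208.9.

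Chrm1 was lower in hypothalamus (-1.17), pons (-1.60), midbrain-thalamus (-1.67), inferior colliculi (-1.68), cerebellum (-1.77), PAG (-1.77), spinal cord (-1.91), superior colliculi (-2.06), choroid plexus (-2.08) and medulla (-2.08), each with a standard error of 0.20. BNST, among the telencephalic tissues, was the exception in level, with arrays at 16.8, 23.1, 28.0 and 46.5. At the 40th percentile floor the CA1 and olfactory bulb differences were 0.71 and 0.68 and not called.

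Among nicotinic subunits 3 higher calls were made in neural tissues, in retina and pituitary. Chrna6, a subunit of retinal and catecholamine neurons, was higher in retina, where the arrays read 194.1, 183.0, 168.5 and 170.0, above every other neural array, by 2.44 ± 0.21 (adjusted p = 4.89e-18). Pituitary came next with 75.8, 61.9, 98.8 and 93.5, a difference of 1.25 ± 0.20 (adjusted p = 7.99e-08). Chrnb2, the common partner of neuronal alpha subunits, was higher in pituitary by 1.58 ± 0.27 (adjusted p = 4.03e-07), with arrays at 43.9, 62.7, 68.7 and 66.8, and lower in choroid plexus (-1.05 ± 0.27), where all arrays were at the floor. At the 40th percentile floor the Chrnb2 differences were 0.80 and -0.10 and not called. Chrnb2 overlaps the protein-coding gene Adar in the annotation, and which gene the probes read was not tested.

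Body tissues were compared with the other 9 in the same way. Of 20 receptor probe sets tested, 13 (65%) were higher in at least 1 tissue, against 74.4% of all 8963, and 9 (45%) lower in at least 1, against 61.8%. Among body tissues Chrna1, Chrnb1, Chrna6 and P2ry2 passed the filter in muscle alone, where they were called higher. In 7 members (35%) every array of 1 tissue lay above all other body arrays, against 34.3% of all probe sets: Chrna1, Chrnb1 and P2ry2 in muscle, and Drd4 and the 3 Chrne probe sets in testes. Muscle had 7 of 20 higher (12.9% of all) and 1 lower (11.5%), and testes 5 higher (19.9%) and 2 lower (24.9%). Kidney had none either way (11.4% and 10.4% of all), and spleen had none higher (16.2%) and 2 lower (19.8%). Liver had 2 each way (13.1% higher and 20.2% lower among all), heart 3 lower (8.71%), white adipose tissue 1 higher (11.1%) and 4 lower (9.08%), and brown adipose tissue 1 lower (9.8%). Adrenal and thymus had 1 higher (7.5% and 15.9%) and 1 lower (6.46% and 15.9%) each.

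Of the muscle nicotinic subunits Chrna1, Chrnb1 and 2 of 3 Chrne probe sets were higher in muscle. Chrnd, the delta subunit, passed the filter in no tissue and had its lowest mean of all 34 tissues in muscle, and neither Chrng probe set was called. Chrnb1 read 238.3 in 129, 219.0 in AJ, 127.8 in B6, 136.5 in C3H and 155.5 in DBA mice, and the highest other body array was a heart array at 67.3. The difference was 3.12 ± 0.17 (adjusted p = 6.14e-20), and Chrnb1 was lower in liver and testes (both -1.36 ± 0.17), where every array was at the floor. Chrna1, the alpha subunit that binds acetylcholine, read 137.6, 92.5, 61.9, 27.7 and 40 in the same order of strains, above all other body arrays, of which the highest was 24.2 and 31 of 45 were at the floor.

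The Chrna1 difference was 2.39 ± 0.20 (adjusted p = 5.06e-14) and was 0.96 and not called at the 40th percentile floor. Chrne, the adult epsilon subunit, was higher in muscle by 2.52 ± 0.19 on 92966_g_at (adjusted p = 4.02e-15) and 1.61 ± 0.19 on 92965_at (adjusted p = 6.11e-10), and 92967_r_at was not called there. The muscle arrays of 92966_g_at read 123.7, 100.3, 61.4, 159.4 and 146.4. Chrng 95639_at, the fetal gamma subunit, was highest of all tissues in muscle, with arrays of 48.3 to 85.1, and not called. Chrna6 was higher in muscle by 1.21 ± 0.23 (adjusted p = 1.18e-05), carried by the C3H array at 120.6, without which it was 0.91 and not called. Ache, acetylcholinesterase of the neuromuscular junction, was higher in muscle by 3.53 ± 0.22.

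**Figure D4:**
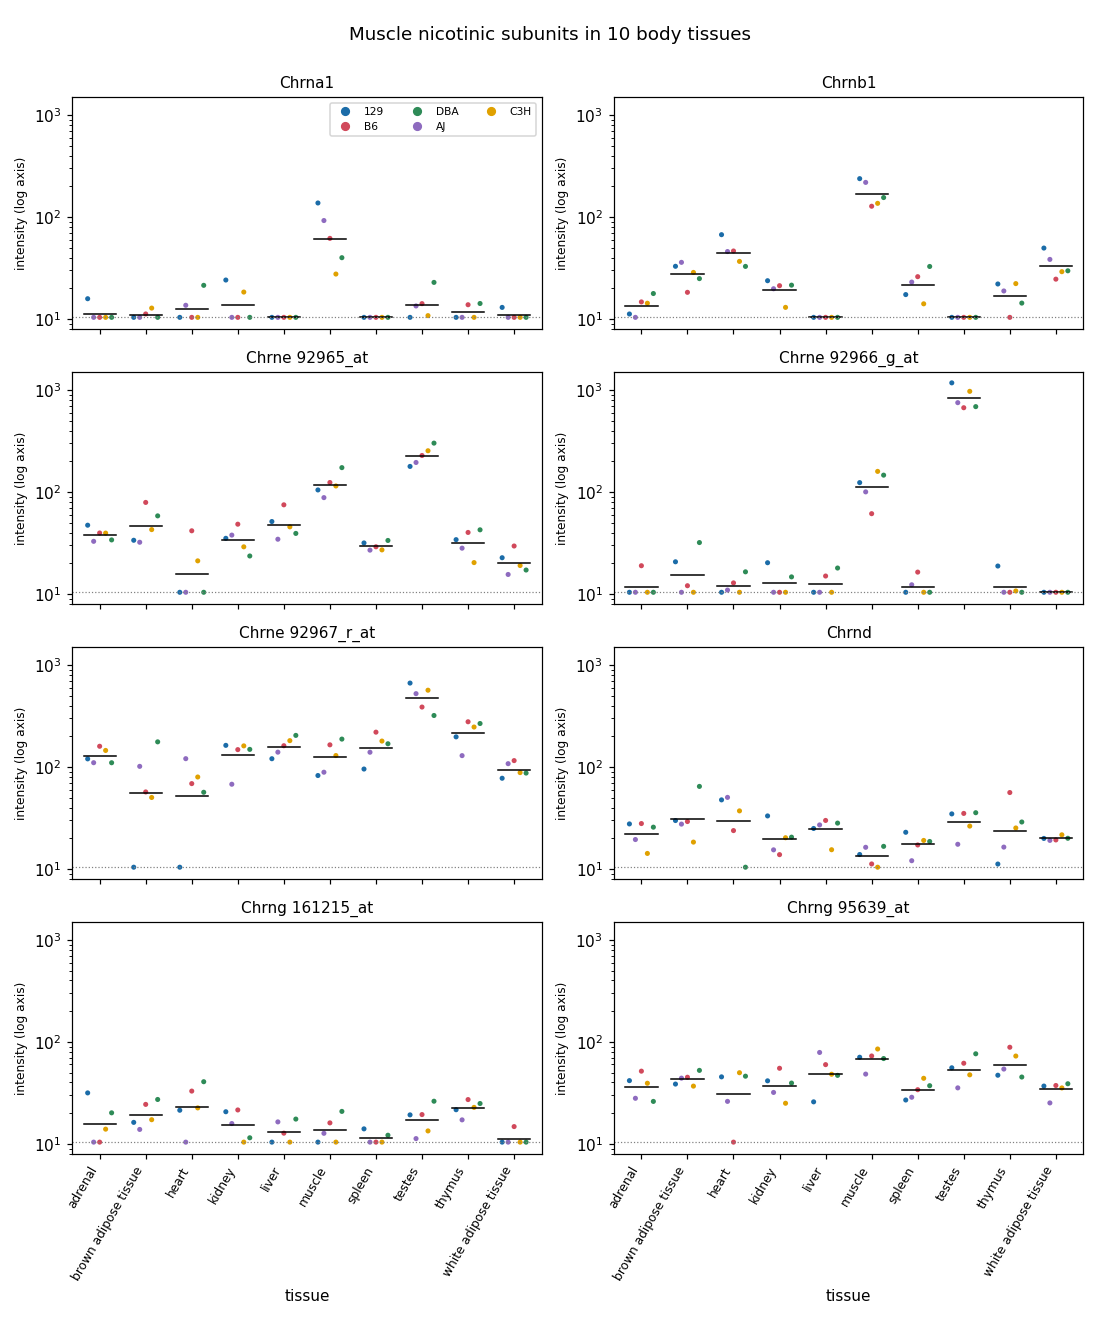
Deposited intensity on each body array (log scale, values under the floor drawn at it) for nicotinic subunit probe sets, by tissue, 1 point for each of the 5 strains and a line at the mean of the log2 values. Muscle lies above the other organs for Chrnb1 and Chrna1, and testes lie highest for the Chrne probe sets.

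The largest body difference of any member was not in muscle. Chrne 92966_g_at read 1176, 752.2, 670.8, 971.4 and 687.7 in testes of 129, AJ, B6, C3H and DBA mice, against at most 159.4 in any other organ, and 25 of the other 45 arrays were at the floor. The difference was 5.73 ± 0.19 (adjusted p = 6.04e-28). The other probe sets were highest in the same tissue: 92965_at read 178.3 to 301.7 in testes and was higher by 2.66 ± 0.19 (adjusted p = 8.77e-17), and 92967_r_at read 319.6 to 664.5 and was higher by 2.07 ± 0.31 (adjusted p = 9.05e-08). In the annotation Chrne overlaps the protein-coding gene 4930544D05Rik, and which of the 2 genes the probes read in testes was not tested.

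Over the 34 tissue means 92965_at and 92966_g_at had a Pearson r of 0.815, and 92967_r_at had 0.442 and 0.285 with them. Lower calls were made for 92966_g_at in heart, spleen, thymus, adrenal and white adipose tissue (-1.06 to -1.29), for 92965_at in white adipose tissue (-1.22) and heart (-1.61), and for 92967_r_at in brown adipose tissue (-1.37) and heart (-1.47). Those of 92967_r_at were -0.87 and -0.99, and not called, without the 129 array of the tissue. Those of 92966_g_at in heart, adrenal, thymus and spleen were also lost without 1 array. Chrna6 was lower in white adipose tissue (-1.02 ± 0.23), a call lost without the 129, B6 or DBA array of that tissue.

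Chrna1, Chrnb1 and Chrne were called higher in muscle, Chrne also and by more in testes, while Chrng was not called and Chrnd was lowest there. For the 4 of these 5 genes with a RefSeq promoter, the 250 bases before their start sites (GRCm38.p6) were searched for CANNTG, the E-box letters known from muscle gene promoters. RefSeq promoters were matched for 34 of the 44 genes. The stretches lie at chr2:73580339-73580588 (minus strand) for Chrna1, chr11:69795938-69796187 (minus) for Chrnb1, chr11:70619195-70619444 (minus) for Chrne and chr1:87205561-87205810 (plus) for Chrng. Capitals mark each CANNTG, which reads the same on both strands. All 4 are shown to let the spacing of these letters be compared.
Chrna1: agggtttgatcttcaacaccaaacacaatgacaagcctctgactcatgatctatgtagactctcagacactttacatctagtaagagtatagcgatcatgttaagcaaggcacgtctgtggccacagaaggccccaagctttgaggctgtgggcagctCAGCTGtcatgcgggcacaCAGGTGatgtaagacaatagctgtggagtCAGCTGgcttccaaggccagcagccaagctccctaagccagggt
Chrnb1: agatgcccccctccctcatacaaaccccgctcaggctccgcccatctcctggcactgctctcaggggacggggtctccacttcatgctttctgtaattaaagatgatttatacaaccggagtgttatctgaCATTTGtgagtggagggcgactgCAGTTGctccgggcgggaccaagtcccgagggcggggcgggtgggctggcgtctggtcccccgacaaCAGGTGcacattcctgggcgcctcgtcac
Chrne: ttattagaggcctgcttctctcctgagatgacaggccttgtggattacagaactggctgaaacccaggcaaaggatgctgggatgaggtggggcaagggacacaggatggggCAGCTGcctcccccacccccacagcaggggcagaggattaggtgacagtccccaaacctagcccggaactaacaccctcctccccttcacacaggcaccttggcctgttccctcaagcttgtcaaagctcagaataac
Chrng: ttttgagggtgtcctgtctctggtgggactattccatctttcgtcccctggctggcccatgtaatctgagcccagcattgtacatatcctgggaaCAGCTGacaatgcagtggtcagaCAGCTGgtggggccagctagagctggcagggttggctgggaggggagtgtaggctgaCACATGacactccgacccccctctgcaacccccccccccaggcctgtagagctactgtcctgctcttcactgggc
Chrna1 had 3 matches, CAGCTG at 92, CAGGTG at 73 and CAGCTG at 44 bases before the start. Chrnb1 had CATTTG at 119, CAGTTG at 96 and CAGGTG at 29, Chrng had CAGCTG at 155 and 132 and CACATG at 75, and Chrne had a single CAGCTG at 138. Of all 32851 windows of this length, 66.2% held at least 1 CANNTG and 12.2% at least 3. The form CAGCTG, a special case of the former, was in 13% of windows at least once and in 1.26% at least 2 times, as in Chrna1 and Chrng. CCGGAA on either strand, the core of the N-box known from synaptic subunit genes, was in 12.0% of windows and in Chrne alone of these 4. A match is a run of letters and not a shown binding site.

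Opioid receptors were measured mainly through Oprl1 and Oprk1. Oprl1 in hypothalamus read 209.5, 199.8, 229.1 and 276.8, and of the other 94 neural arrays 1 PAG array, at 208.0, entered this range. The difference was 1.80 ± 0.14 (adjusted p = 2.15e-18). PAG, with 174.7, 208.0, 173.4 and 141.0, was next at 1.38 ± 0.14 (adjusted p = 3.76e-13). BNST (1.22), inferior colliculi (1.22), superior colliculi (1.12), midbrain-thalamus (1.11) and pons (1.04) were also higher, each with a standard error of 0.14, but these 5 calls were lost without retina, pituitary and choroid plexus as comparison tissues, at 0.69 to 0.87. The pons call was also lost without the first B6 pons array (0.99).

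Oprl1 was lower in retina (-1.98 ± 0.15), cerebellum (-2.10 ± 0.14), choroid plexus (-2.67 ± 0.14) and pituitary (-2.85 ± 0.14). The pituitary arrays all read under the floor, while the hypothalamus arrays, on which 4 of 8 pituitary hormone probe sets were higher, were the highest. Its ligand gene Pnoc, prepronociceptin, was higher in midbrain-thalamus (2.18 ± 0.20), PAG (2.11 ± 0.20), BNST (1.84 ± 0.20), hypothalamus (1.34 ± 0.20), inferior colliculi (1.29 ± 0.20) and pons (1.10 ± 0.20).

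Oprk1, the kappa receptor for dynorphins, was highest in striatum. Its striatal arrays read 60.3, 55.3, 52.7 and 53.9, and 1 pituitary array at 59.4 lay within them. The difference was 1.41 ± 0.22 (adjusted p = 1.51e-07), with hypothalamus at 1.26 ± 0.22 (adjusted p = 2.69e-06) and PAG at 1.07 ± 0.22 (adjusted p = 5.73e-05). The PAG call was lost without the first 129 array (0.98), and at the 40th percentile floor the differences were 0.69, 0.55 and 0.36 and not called. The dynorphin precursor Pdyn was higher in striatum by 3.71 ± 0.25 and in hypothalamus by 2.54 ± 0.25. Pomc, the precursor of beta-endorphin, was higher in pituitary by 8.21 ± 0.26 and in hypothalamus by 2.81 ± 0.26. Its receptor Oprm1 read above the floor on 1 of 4 pituitary arrays and on none of 4 in hypothalamus. Pituitary hormone markers had a mean level of 12.7 in pituitary, 6.11 in hypothalamus and at most 5.64 in any other tissue. The part of pituitary tissue in the hypothalamic Pomc difference was not tested.

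Npy1r, the Y1 receptor, was read by 93007_at in cortex and hippocampus. Dentate gyrus arrays were 203.5 and 95.0 in 129 and 178.9 and 97.9 in B6 mice, and cortex arrays 133.3, 143.0, 112.2 and 151.0. The tissues overlapped, at differences of 1.92 ± 0.16 (adjusted p = 6.32e-17) and 1.91 ± 0.16 (adjusted p = 1.33e-16). Whole hippocampus (1.68), motor cortex (1.60), CA1 (1.47), CA3 (1.35) and amygdala (1.18) were also higher. Amygdala was lost without retina, pituitary and choroid plexus (0.91), and at the 40th percentile floor amygdala, CA1 and CA3 were lost (0.65, 0.94 and 0.82).

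Npy1r 93007_at was lower in superior colliculi (-1.18), medulla (-1.25), PAG (-1.32), pons (-1.83) and retina (-1.89), and in choroid plexus, cerebellum and pituitary (each -1.94), where all arrays were at the floor. The other probe set, 93128_at, had its highest mean in retina, where 93007_at was at the floor, and over the 34 tissue means the pair had a Pearson r of 0.0348. Npy, the ligand gene, was higher in the telencephalon than in hindbrain and cord by 2.70 ± 0.45, as Npy1r was. Its largest neural difference was in olfactory bulbs (2.42 ± 0.21), where Npy1r was not called, followed by motor cortex (2.10 ± 0.23) and cortex (1.97 ± 0.21).

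Somatostatin receptors were read chiefly through Sstr2. In cortex 98350_at read 146.6, 172.8, 145.4 and 167.0 and in amygdala 186.4, 164.2, 156.3 and 118.5, with overlap between the tissues. The differences were 1.18 ± 0.15 in cortex (adjusted p = 6.37e-10), 1.16 ± 0.16 in motor cortex (adjusted p = 9.34e-09), 1.15 ± 0.15 in amygdala (adjusted p = 2.41e-09) and 1.02 ± 0.16 in entorhinal cortex (adjusted p = 4.97e-07). The amygdala and entorhinal calls were lost without retina, pituitary and choroid plexus (0.99 and 0.84), and the entorhinal call also without the first DBA array (0.99). Sstr2 98350_at was lower in olfactory bulbs (-1.43 ± 0.15), cerebellum (-1.77 ± 0.15) and choroid plexus (-2.16 ± 0.15).

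The other Sstr2 probe sets followed it, with Pearson r from 0.873 to 0.929 over the tissue means. The probe set 98351_g_at was higher in cortex (1.16 ± 0.16) and amygdala (1.04 ± 0.16) and lower in choroid plexus (-1.42 ± 0.16), and 98352_r_at was higher in motor cortex (1.11 ± 0.26) and lower in choroid plexus (-1.04 ± 0.24) and cerebellum (-1.51 ± 0.24). Without the first 129 amygdala array the 98351_g_at call there was 0.93 and not made, and without the second DBA motor cortex array that of 98352_r_at was 0.98. The Sstr2 annotation overlaps Slc39a11, and which gene the probes read was not tested.

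Sstr5, a receptor of hormone-secreting cells, was higher in pituitary, where its arrays read 82.1, 63.7, 56.0 and 73.8 and the highest other array 68.0, by 1.08 ± 0.24 (adjusted p = 3.63e-05). After quantile normalization this was 0.86 and not called. Sst, the ligand gene, was higher in neural than in body tissues by 5.36 ± 0.68. Like Sstr2 98350_at it was higher in entorhinal cortex (1.96 ± 0.18), cortex (1.79 ± 0.16) and amygdala (1.71 ± 0.16) and lower in choroid plexus (-3.89 ± 0.16), cerebellum (-3.59 ± 0.16) and olfactory bulbs (-1.88 ± 0.16). In pituitary, where Sstr5 was highest, Sst was lower, at -6.22 ± 0.16.

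The purinergic receptors had their highest means in different tissues: P2rx1 in white adipose tissue, P2rx4 in liver, P2rx6 in pituitary (6.35), P2rx7 in retina, P2ry1 in heart and P2ry2 in muscle. P2rx4 read 228.4 in 129, 299.7 in AJ, 449.2 in B6, 481.3 in C3H and 419.8 in DBA liver, against at most 251.1 in other body tissues, in kidney. The 129 array alone overlapped the others, and the difference was 1.77 ± 0.14 (adjusted p = 4.25e-15). P2rx4 was lower in testes (-1.49 ± 0.14) and muscle (-1.59 ± 0.14). Among neural tissues it was higher in pituitary (1.12 ± 0.16, or 0.99 and not called after quantile normalization) and lower in amygdala (-1.32 ± 0.16) and choroid plexus (-1.63 ± 0.16). P2rx4 overlaps Camkk2 in the annotation, and which gene the probes read was not tested.

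P2rx1, a channel of smooth muscle and blood cells, read 212.2 in 129, 82.8 in AJ, 432.5 in B6, 496.7 in C3H and 403.9 in DBA white adipose tissue. Thymus followed at 323.4, 206.5, 200.04, 263.2 and 164.2, and the 2 tissues overlapped. The differences were 1.71 ± 0.23 (adjusted p = 2.94e-08) and 1.40 ± 0.23 (adjusted p = 8.08e-07), with a lower call in liver (-1.04 ± 0.23) that was lost without the C3H or the DBA liver array. Smooth muscle markers were higher in 6 of 8 probe sets in white adipose tissue, with a mean level of 8.63 there against at most 7.83 in any other tissue. Their part in the P2rx1 difference was not tested.

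P2ry2, a G protein-coupled receptor for ATP and UTP, was at the floor on 63.5% of arrays and had 2 peaks. In muscle it read 120.3 in 129, 129.7 in AJ, 60.9 in B6, 67.8 in C3H and 92.2 in DBA mice, against at most 50.9 in other organs, for a difference of 2.65 ± 0.23 (adjusted p = 3.65e-13). In pituitary it read 67.4, 47.1, 82.7 and 79.4, while the other neural arrays reached at most 29.3 and 70 of those 94 were at the floor, for a difference of 2.53 ± 0.17 (adjusted p = 5.6e-24). No other array overlapped either tissue within its fit. P2rx6 was higher in muscle (1.12 ± 0.24, adjusted p = 9.83e-05), where its arrays read 55.8 to 98.8, and lower in spleen (-1.11 ± 0.24, or -0.94 and not called without the 129 array).

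Htr3a was the serotonin receptor called in body tissues. Adrenal arrays read 71.9, 127.0, 79.9, 70.9 and 69.6 in 129, AJ, B6, C3H and DBA mice, and testes arrays 112.3, 67.1, 32.5, 109.1 and 69.1. The tissues overlapped, and the differences were 1.32 ± 0.27 (adjusted p = 0.000111) and 1.10 ± 0.27 (adjusted p = 0.000397). The testes call was lost with the Gapdh ratio as a covariate (0.74, adjusted p = 0.0727) and without the 129 or C3H array (0.87 and 0.95). Htr3a was lower in white adipose tissue (-1.01 ± 0.27), a call lost without the B6 or the DBA array. In adrenal, 6 of 6 chromaffin cell probe sets were higher, and so were 6 of 8 adipocyte probe sets; their part in the Htr3a difference was not tested.

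Strain differences, 129 against B6, came from fits that also held the tissue. No receptor was called at 1.5-fold in neural tissues (32 tested, 2.35% of all called) or body tissues (20 tested, 3.54% of all). By limma's adjusted p alone, 8 of the 32 were under 0.05 in neural tissues, against 22.4% of all 8460 probe sets, and 9 were under an unadjusted 0.05, against 2707 of all. In body tissues none of the 20 had an adjusted p under 0.05, against 7.41% of all 8963, and 5 had an unadjusted p under it, against 2020 of all.

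In neural tissues the differences, 129 minus B6, ran from -0.30 ± 0.10 for Htr3a (adjusted p = 0.0150) to 0.40 ± 0.11 for Sstr2 98352_r_at (adjusted p = 0.00244). The other Sstr2 probe sets lay at 0.37 ± 0.07 for 98351_g_at (adjusted p = 1.34e-05) and 0.20 ± 0.07 for 98350_at (adjusted p = 0.0171), so that all 3 were higher in 129. Htr5a was higher in 129 by 0.20 ± 0.06 (adjusted p = 0.00681), Htr2c by 0.21 (adjusted p = 0.0490), P2rx4 by 0.19 (adjusted p = 0.0362) and Sstr4 by 0.14 (adjusted p = 0.0246). The largest body difference was that of Chrne 92967_r_at at -0.84 ± 0.29 (adjusted p = 0.0697).

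The strain difference was itself compared between neural and body tissues as an interaction, called at an adjusted p of 0.05. Of 35 receptor probe sets 5 (14.3%) had a 129 minus B6 difference called higher in neural than in body tissues, against 6.13% of all 9803. None had it called lower, against 5.12%. This fit took 1 spread for neural and body arrays together. Its standard error was below that of the body fit alone for Chrne 92967_r_at (0.24 against 0.29), Htr7 (0.16 against 0.18) and Sstr4 (0.13 against 0.15). For P2rx4 it was above (0.15 against 0.13). None of these had an adjusted p under 0.05 in the body fit. The probe set 98351_g_at of Sstr2 passed the filter in no body tissue and was not tested in the body fit. Its body means lay between 3.53 in liver and 5.10 in thymus, and its 129 liver array was at the floor. Sstr2 98351_g_at had 0.93 ± 0.20 (adjusted p = 0.000826): its strain difference was above 0 in 17 of 20 neural tissues with both strains and below 0 in 8 of 10 body tissues. The other Sstr2 probe sets did not share it, at -0.04 (adjusted p = 0.921) and -0.21 (adjusted p = 0.678).

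Chrne 92967_r_at had an interaction of 0.84 ± 0.24 (adjusted p = 0.0114), which was 0.59 and 0.60 and not called without the 129 brown adipose or the 129 heart array, both at the floor. Htr7 had 0.53 ± 0.16 (adjusted p = 0.0229), P2rx4 0.45 ± 0.15 (adjusted p = 0.0409) and Sstr4 0.41 ± 0.13 (adjusted p = 0.0269). Each was lost without single body arrays: Htr7 without 129 heart or B6 thymus (0.45 in both), Sstr4 without 129 liver, 129 muscle or B6 liver (0.36, 0.37 and 0.31), and P2rx4 without any of 7 arrays. Body tissues gave 1 array a strain, so that strain and animal cannot be told apart within a tissue.

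**Figure D5:**
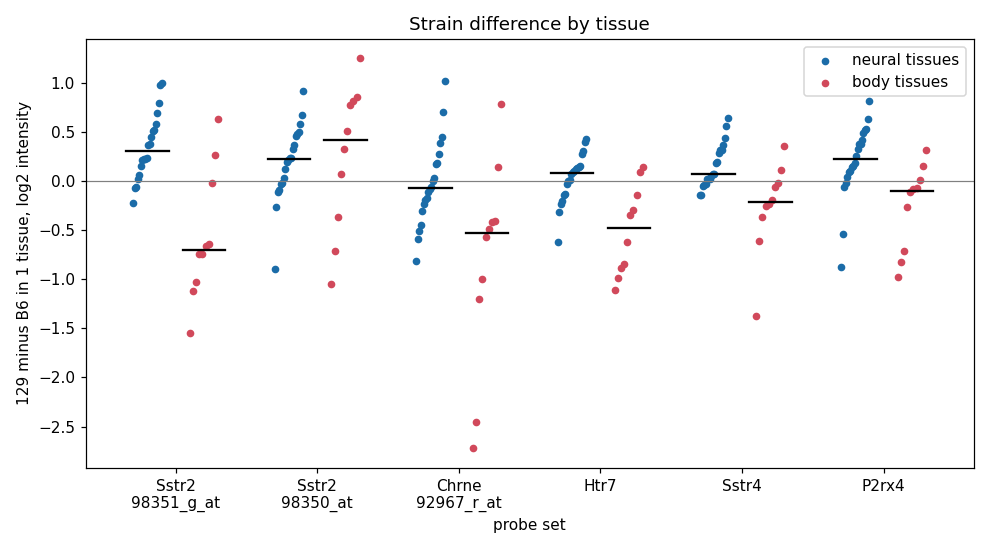
Log2 difference of 129 minus B6 in each tissue with both strains, 1 point a tissue, for the 5 receptor probe sets called in that comparison, and for Sstr2 98350_at beside them, with neural and body tissues apart and a line at each median. For Sstr2 98351_g_at 17 of 20 neural tissues lie above 0 and 8 of 10 body tissues below it.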

How the data were processed

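The deposited values are intensities on a linear scale, 1 column an array, and their 75th percentile is nearly equal on all arrays. Biotin-labelled targets were made from total RNA, per the labels' protocols. Summary software, background correction and scaling: not given in the sources used here. Precision is limited by the number of arrays.

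The floor was the 20th percentile of all values, and log2 was taken without further scaling. Gene symbols came from GEO's platform annotation: 10833 probe sets had 1 symbol, 396 several and 1193 none, and no symbol needed updating. Titles with BL6 were taken as B6. All probe sets past the filter entered the fits of limma 3.58.1 (R 4.3.3; lmFit, then eBayes with a trend) and the Benjamini-Hochberg adjustment, and only receptor values are printed. Tissue contrasts came from 1 fit of neural and 1 fit of body arrays with strain as a covariate, and contrasts between tissue classes from tissue means. Every call on a receptor is named, uncalled receptors are named by their highest tissue, array values are given for the leading members of each family, and other genes are named from lists by the size of their difference. The receptors, lists and tests were chosen with earlier results of these data known.

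The fits were also run on simulated data with 200 changed probe sets of a log2 change of 2. They recovered 91.5% for neural against body tissues and 100% for striatum, muscle and the strain comparisons. In the comparison of strain differences 15 calls (6.98%) were false, against at most 1.96% of calls in the other runs. The changed probe sets were drawn from those with a mean level above the median of all log2 values, and the noise was normal without a floor. Apart from the neural against body run, the simulated tissues did not otherwise differ from each other. The 100% is thus not the recovery among tissues as unlike as the real ones. Recovery of receptors near the floor was not tested. The labels do not say whether arrays whose titles share a code came from the same mice; the code was tried as a block: 20 codes joined 46 of 98 neural arrays with a correlation of 0.157, and 8 codes joined 22 of 50 body arrays with 0.0394. Alternatives covered the floor, filter, scaling, RNA quality, strains, tissues and each array left out. The one added after seeing the data was the leaving out of single body arrays in the comparison of strain differences.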

Additional observations from a re-analysis of the deposited data

Results flagged for a closer look

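On the 4 B6 retina arrays Htr2c was at the floor on 3 and just above it on 1, at an intensity of 10.79, so that the gap of the highest array to the others made up the whole range (a ratio of 1). With 3 arrays tied at the floor any value above it gives this ratio, so it does not show that the array stands apart.

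In 5 receptor probe sets the difference between 129 and B6 differed between neural and body tissues by the interaction test: Sstr2 98351_g_at (0.93), Chrne 92967_r_at (0.84), Htr7 (0.53), P2rx4 (0.45) and Sstr4 (0.41). Body tissues with a lower level in 129 numbered 8 of 10 for Sstr2 98351_g_at, Chrne 92967_r_at, Htr7 and Sstr4 and 7 of 10 for P2rx4. For the other Sstr2 probe sets, not called, they numbered 3 of 10 (98350_at) and 5 of 10 (98352_r_at). The calls of Chrne 92967_r_at, Htr7, P2rx4 and Sstr4 were each lost without single body arrays.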

How the results depend on the processing

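No call on a receptor turned direction in any alternative run. Of 148 calls (85 higher, 63 lower), 27 were lost when some array or tissue was left out and 74 under some other alternative, the floor above all. With the floor at the 40th percentile (32.8), 17 calls remained among body tissues (34 before), 55 among neural tissues (97 before) and 5 between neural and body tissues (9 before), and 79.3% of pairs were near the floor. With it at the 10th percentile (3.28) that share was 18.9% instead of 47.2%. With 1 probe set a gene there were 20 body calls, and without retina, pituitary and choroid plexus 63 neural calls. Without the filter 1 receptor, Sstr1 at 0.69, was called between the strains in neural tissues, and 10 tissue calls were made on probe sets not tested in that fit with it: higher for Chrnb1 in pituitary (1.99), Htr5b in testes (1.57), Htr1f in olfactory bulbs (1.53), Npy1r 93128_at and Npy6r in retina (1.497 and 1.15), Chrm4 in striatum (1.22) and P2ry1 in heart (1.08), and lower for Sstr5 in spleen (-1.22) and Htr1a in striatum (-1.11) and cerebellum (-1.06). After quantile normalization 3 strain differences, instead of 5, were called as unequal in neural and body tissues.

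Leaving out single arrays or tissues gave 32 to 39 body calls, 96 to 101 neural calls, 8 to 10 between neural and body tissues, 2 to 3 between telencephalon and hindbrain, 0 to 1 between strains in body tissues (1 without the 129 kidney or testes array), 0 to 0 in neural tissues and 3 to 7 in the comparison of strain differences. With the shared animal or pool code as a replicate block, the counts were 99 neural and 35 body calls, and none of 131 calls was lost. The cause of these losses was not tested. Among tissue calls quantile normalization also ended those of P2rx1 in liver (-0.75), Sstr2 98352_r_at in choroid plexus (-0.71), Chrna6 and Htr3a in white adipose tissue (-0.84 and -0.83) and Chrne 92966_g_at in spleen (-0.93), and the 10th percentile floor ended those of Npy1r 93007_at in medulla (-0.95) and superior colliculi (-0.88). Quantile normalization moved the median of all probe sets by over 0.1 in retina (-0.12), choroid plexus (0.102) and liver (0.101). It moved the share of higher among all calls from 71.2% to 57.7% in hypothalamus, 50.4% to 65.4% in midbrain-thalamus, 51.1% to 39.4% in perirhinal cortex, 53.8% to 43.2% in retina, 49.6% to 59.9% in superior colliculi and 35.3% to 48.5% for 129 against B6 in body tissues. Signal near the floor limits every lower call and each receptor with few values above it.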
